A study of Arabidopsis thaliana with 12 samples.

Results

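The comparison is of trimethylation of lysine 27 of histone H3 (H3K27me3) in *ref4-3* with that in wild type, over every gene region in which the mark was counted. It covers 8663 regions in 8286 genes and rests on 4 chromatin immunoprecipitation and sequencing (ChIP-seq) libraries of the 12 samples in the series, 2 from wild type and 2 from *ref4-3*. Both genotypes were *Arabidopsis thaliana* of the Col-0 ecotype, and whole rosettes of 21-day-old plants, grown on soil in long days, were used. *ref4-3* is a semidominant allele that changes 1 amino acid of MED5b (AT2G48110), a tail subunit of the Mediator complex, so the groups differ in a protein that is altered and not absent. Each biological replicate was a pool of rosette tissue, which mixes leaves of several ages and many cell types. Within such a pool, a lower level of the mark per cell and a lower share of cells that carry it cannot be told apart.

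H3K27me3 is placed by Polycomb repressive complex 2 and is found over genes that are held silent in a given tissue, in Arabidopsis mostly over single genes rather than broad domains. Genes for flower and seed development carry the mark in leaves, whereas genes that respond to hormones or stress often carry less of it. Mediator links transcription factors to RNA polymerase II, and MED5 is known for its part in limiting the phenylpropanoid pathway, which makes lignin monomers, sinapate esters and flavonoids.

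A region is the stretch of a gene that lies inside a block of enrichment, termed an island, found in either genotype. Between 5805781 and 8466471 sequenced fragments fell in the regions per library, and the median region held 424 to 628 fragments. Levels are given as fragment counts scaled to a common library size by trimmed means (CPM), and as CPM per kb where genes are compared with each other. This scaling sets the typical region to no change, so the values are relative to the other regions, and a shift shared by all of them is not measurable. A region was called decreased or increased when edgeR's exact test gave a false discovery rate (FDR) below 0.05 and the change exceeded 1.2-fold, and a gene counted as called through any 1 region. By this rule 638 genes were decreased, 7.7% of those tested, and 457 were increased, 5.52%. The corresponding shares of regions were 7.54% and 5.43%. These shares are the background against which each group of genes is set. They hold for this rule only. With another test or without single libraries the counts over all genes also move, and these counts are given at the end. With 2 libraries per genotype the error rests on little replication. DESeq2 called 219 and 187 genes, and without the second *ref4-3* library the increased genes (545) outnumbered the decreased (511).

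Genes of flower and seed development carried the mark at high levels. All 15 genes of a floral organ identity list and all 14 of a seed maturation list were in the table, with median wild-type levels of 144 and 195 CPM per kb against 73.4 over all regions. Of 15 photosynthesis genes, which leaves use, 11 (73.3%) were also in the table, against 25.7% of annotated protein-coding genes. They had a median of 48.7 CPM per kb over short regions of a median 600 bp, and *RBCS1A* reached 142 CPM per kb. The *ref4-3* libraries stood apart from each other at these genes. Their summed level was 342 and 345 CPM in wild type, 502 CPM in *ref4-3* replicate 1 and 248 CPM in replicate 2. Replicate 1 lay above both wild-type libraries at 10 of the 11 genes and replicate 2 below both at 11. At *CAB1*, a light-harvesting protein gene, the levels were 45.0 and 45.2 CPM in wild type and 70.1 and 33.6 CPM in *ref4-3*, and at *RBCS1A*, a Rubisco small subunit gene, 57.0 and 56.2 CPM against 85.1 and 36.1 CPM. None of the 11 genes passed the test with both libraries. The median log2 fold change of the list was −0.495 without the first *ref4-3* library, with 9 genes decreased, and 0.587 without the second, with 8 increased. The part of this difference between the libraries in the other results was not tested. Counts without single libraries are given below for some of the groups that they move, and not for all.

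Most changes were small. The 653 decreased regions had a median log2 fold change of −0.40, a 1.32-fold lower level, and 20 of them changed more than 2-fold. The 470 increased regions had a median of 0.39, 1.31-fold, and 12 changed more than 2-fold. Both *ref4-3* libraries lay on the same side of both wild-type libraries in 99.8% of the called regions in each direction, and in 61.9% of all regions.

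Among protein-coding genes whose region overlapped no other gene's region, the decreased genes at the top of the order by fold change included an F-box gene, a pair of phosphatase genes of the abscisic acid pathway, an aspartyl protease gene and several genes of unknown function. *AT3G28330*, annotated as an F-box-like protein, held 2040 and 2231 fragments in wild type and 405 and 569 in *ref4-3*, or 263 and 262 CPM against 69.8 and 70.1 CPM. Its region spans the whole gene at chr3:10586566-10587759 on the minus strand, and the log2 fold change was −1.91 (SE 0.0587, FDR 3.62e-289). *HAI1* (AT5G59220), a type 2C protein phosphatase of clade A, the group that holds abscisic acid signalling in check, had 190 and 199 CPM in wild type against 78.2 and 60.7 CPM in the mutant. Over the 92.2% of the gene that the region covers, the log2 fold change was −1.51 (SE 0.0698, FDR 3.61e-108). Its relative *HAI2* had 217 and 208 CPM against 125 and 95.4 CPM, a log2 fold change of −0.96. Genes in this set were picked to have no overlap between the genotypes, and the spread within *ref4-3* was wider at the phosphatases than at *AT3G28330*.

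*ERF15*, an ethylene response factor-type transcription factor gene, fell from 24.4 and 23.4 CPM to 10.2 and 8.86 CPM, and *OZF1*, a CCCH zinc finger gene, from 19.7 and 20.7 CPM to 8.27 and 9.11 CPM. The aspartyl protease gene *AT5G10770* fell from 86.3 and 85.6 CPM to 36.7 and 38.3 CPM, with a log2 fold change of −1.19. *AT3G27250*, of unknown function, fell from 276 and 265 CPM to 130 and 112 CPM, and the non-coding gene *AT3G05215* in the same island from 59.6 and 68.0 CPM to 29.5 and 25.4 CPM. A further F-box gene, *AT4G10820*, had 56.0 and 63.3 CPM against 29.3 and 27.6 CPM. The remaining decreased genes of this set were *AT1G35895*, *AT5G11660*, which has a DUF239 domain, *AT5G61880*, annotated as a Pam16-type protein transporter, and *PGSIP8*, a glycosyltransferase gene, at log2 fold changes from −1.86 to −1.03. *PGSIP8* was the least firm. Its *ref4-3* libraries were at 15.2 and 7.63 CPM, its change was −0.58 without the second of them, and DESeq2 gave it an adjusted p of 0.238.

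The 12 increased protein-coding genes at the top of the order included 5 that encode transcription factors. The share of such genes among all marked genes was not counted. *BZIP61* and *BZIP34*, related basic leucine zipper genes, had 53.7 and 46.5 CPM against 128 and 136 CPM, and 16.5 and 13.2 CPM against 37.0 and 34.5 CPM, which are log2 fold changes of 1.41 and 1.27. *HAT1*, a class II homeodomain-leucine zipper gene, rose from 21.0 and 15.8 CPM to 45.7 and 36.4 CPM. *RAV1*, whose protein has an AP2 and a B3 domain, rose from 24.4 and 25.5 CPM to 55.8 and 54.5 CPM. The C2H2 zinc finger gene *AT1G75710* rose from 17 and 14.5 CPM to 33.6 and 31.4 CPM. These 5 genes had 10.6 to 26.2 CPM per kb in wild type, and *AT5G43755*, *AT1G22330*, *AT1G11362* and *AT1G59970* were as low. The largest fold was that of *AT5G43755*, annotated as a reverse transcriptase-like gene, whose 44 and 41 fragments in wild type stood against 179 and 250 in the mutant (log2 fold change 2.55, SE 0.186, FDR 4.82e-49). The next gene along chromosome 5, *KCS20*, an elongase gene of very-long-chain fatty acid synthesis, rose from 24.6 and 26.2 CPM to 51.3 and 55.8 CPM.

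Of the other increased protein-coding genes, *AT1G33820*, of unknown function, lay in an island with 5 genes and had 54.2 and 58.2 CPM against 119 and 108 CPM. The pseudogene *AT1G33817* in that island rose from 27.1 and 27.5 CPM to 52.9 and 47.2 CPM. *AT1G22330*, which encodes an RNA-binding protein, *AT3G50120*, which has a DUF247 domain, *AT1G11362*, an invertase or pectin methylesterase inhibitor gene, and *AT1G59970*, a matrixin-type metalloprotease gene, had log2 fold changes from 1.31 to 0.90. The other non-coding genes and pseudogenes picked by the same rule were *AT1G07317* and *AT3G03945*, at −2.08 and −1.06, and *AT1G08843* and *AT1G31030*, at 1.01 and 0.91.

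**Figure D1:**
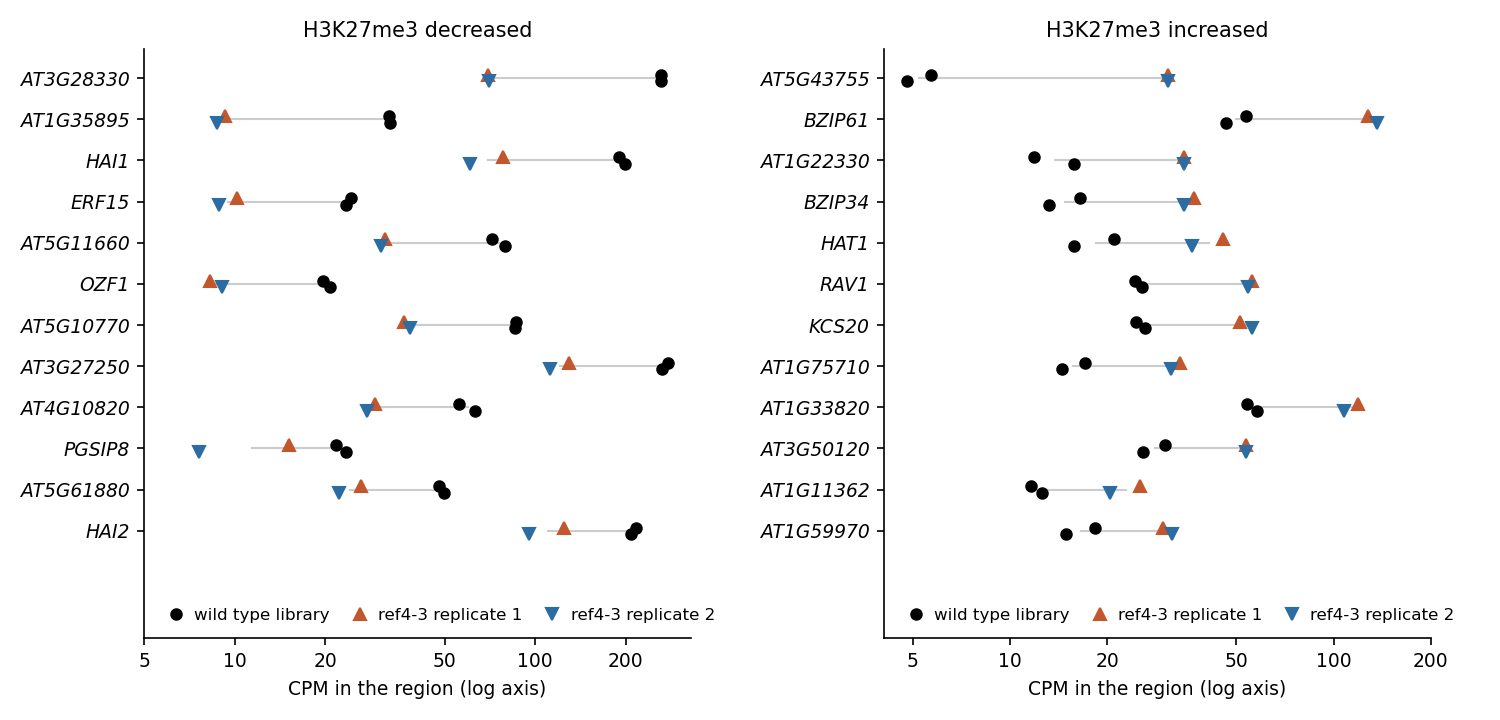
Level of H3K27me3 in CPM on a log axis for the 12 protein-coding genes with the largest decrease (left) and increase (right), with 1 point per library and a grey line between the genotype means. The genes were chosen so that the genotypes do not overlap, and the *ref4-3* libraries differ most from each other at *PGSIP8*, with 15.2 and 7.63 CPM.

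The 250 bases before the annotated start are shown for the first 3 protein-coding genes in each direction whose region reaches the start, because there the mark was counted up to the edge of the promoter. They come from the RefSeq genome TAIR10.1 and read 5′ to 3′ in the direction of the gene, all 6 on the minus strand. They lie at chr3:10587760-10588009, chr5:23896940-23897189, chr5:3405572-3405821, chr5:17583773-17584022, chr1:12279452-12279701 and chr1:3825232-3825481, in the order printed. Capitals mark matches, on either strand, to 4 motifs that are known in Arabidopsis from elements bound by Polycomb recruiters or by hormone-related factors, namely the telobox AAACCCTA, the repeat GAGAGA, the G-box CACGTG and the core of the RY element CATGCA. The first 3 genes decreased and the last 3 increased.
AT3G28330: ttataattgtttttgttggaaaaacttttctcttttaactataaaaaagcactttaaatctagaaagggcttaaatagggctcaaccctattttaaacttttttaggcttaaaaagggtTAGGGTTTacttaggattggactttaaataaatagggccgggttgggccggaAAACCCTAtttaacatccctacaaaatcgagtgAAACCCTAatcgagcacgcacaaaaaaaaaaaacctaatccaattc
HAI1: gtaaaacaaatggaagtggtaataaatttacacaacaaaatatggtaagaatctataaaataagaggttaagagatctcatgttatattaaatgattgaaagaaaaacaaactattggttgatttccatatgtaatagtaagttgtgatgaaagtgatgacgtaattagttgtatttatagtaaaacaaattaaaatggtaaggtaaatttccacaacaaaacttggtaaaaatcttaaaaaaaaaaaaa
AT5G10770: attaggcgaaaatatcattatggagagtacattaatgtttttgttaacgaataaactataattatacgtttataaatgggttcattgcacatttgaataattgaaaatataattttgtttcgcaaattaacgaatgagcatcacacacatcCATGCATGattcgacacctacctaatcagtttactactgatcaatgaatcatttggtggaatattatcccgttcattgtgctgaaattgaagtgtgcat
AT5G43755: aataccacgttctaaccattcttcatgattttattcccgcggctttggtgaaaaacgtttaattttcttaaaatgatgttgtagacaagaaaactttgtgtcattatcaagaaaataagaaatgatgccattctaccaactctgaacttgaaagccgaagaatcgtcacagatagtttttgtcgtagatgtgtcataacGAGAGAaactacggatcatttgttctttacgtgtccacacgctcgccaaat
AT1G33820: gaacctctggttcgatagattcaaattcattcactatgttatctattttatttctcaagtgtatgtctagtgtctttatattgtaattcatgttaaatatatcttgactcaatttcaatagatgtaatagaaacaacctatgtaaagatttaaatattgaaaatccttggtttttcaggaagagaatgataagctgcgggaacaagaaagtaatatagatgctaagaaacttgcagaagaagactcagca
AT1G11362: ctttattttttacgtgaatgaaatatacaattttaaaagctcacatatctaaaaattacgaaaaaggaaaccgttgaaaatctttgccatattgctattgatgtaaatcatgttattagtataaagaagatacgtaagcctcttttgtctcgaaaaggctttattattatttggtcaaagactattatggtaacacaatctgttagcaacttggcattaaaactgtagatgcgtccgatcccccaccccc

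*AT3G28330* had 3 teloboxes, at 131, 79 and 46 bases before the start. *AT5G10770* had a pair of overlapping RY cores at 99 and 97 bases, and *AT5G43755* a GAGAGA match at 51 bases. *HAI1*, *AT1G33820* and *AT1G11362* held none of these letters in the window. Over all 7091 protein-coding genes in the table, the telobox was present in the same window at 5.82%, against 6.06% of the 561 decreased and 2.14% of the 373 increased ones. GAGAGA was present at 20.3%, 19.6% and 15%, the G-box at 5.91%, 7.49% and 6.97%, and the RY core at 13.5%, 14.3% and 12.1%. The low share of teloboxes among increased genes rests on 8 genes. A match is a run of letters and not a bound site.

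The kinds of region that changed differed by how much mark they carried and by the size of their island. The regions were ordered by their wild-type level and divided into 10 bins of equal size, numbered from the least mark to the most. In bin 4, from 50.9 to 60.7 CPM per kb, 12.5% of regions were decreased and 5.54% increased. In bin 10, from 177 to 621 CPM per kb, the shares were 1.15% and 0.46%, or 10 and 4 of 867 regions. In bin 1, from 10.6 to 35.4 CPM per kb, 8.65% were decreased and 18.7% increased. The median log2 fold change was 0.08 in bin 1, −0.05 in bin 3 and 0.05 in bin 10.

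The rise in bin 1 and the place of the highest decreased share depended on the ordering. The wild-type libraries that ordered the regions are also the base of the fold change. With the regions ordered by the mean of all 4 libraries, bin 1 had a median of −0.07 with 17.8% decreased and 10.4% increased. Bin 4 then had 9.82% and 5.66%, and the highest decreased share was in bin 1. With 1 wild-type library to order and the other as the base, the median of bin 1 was 0.06 or 0.05. With a trend over the mean count removed, bin 4 of the wild-type ordering had 94 decreased and 67 increased regions, against 108 and 48. The slope over the other bins also appeared between the *ref4-3* replicates, where the median log2 ratio of replicate 2 to replicate 1 rose from −0.08 in bin 1 to 0.04 in bin 10. Between the wild-type replicates the medians of the bins ranged from −0.02 to 0.01. The medians over the bins were thus of the same size as the difference between the *ref4-3* libraries.

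**Figure D2:**
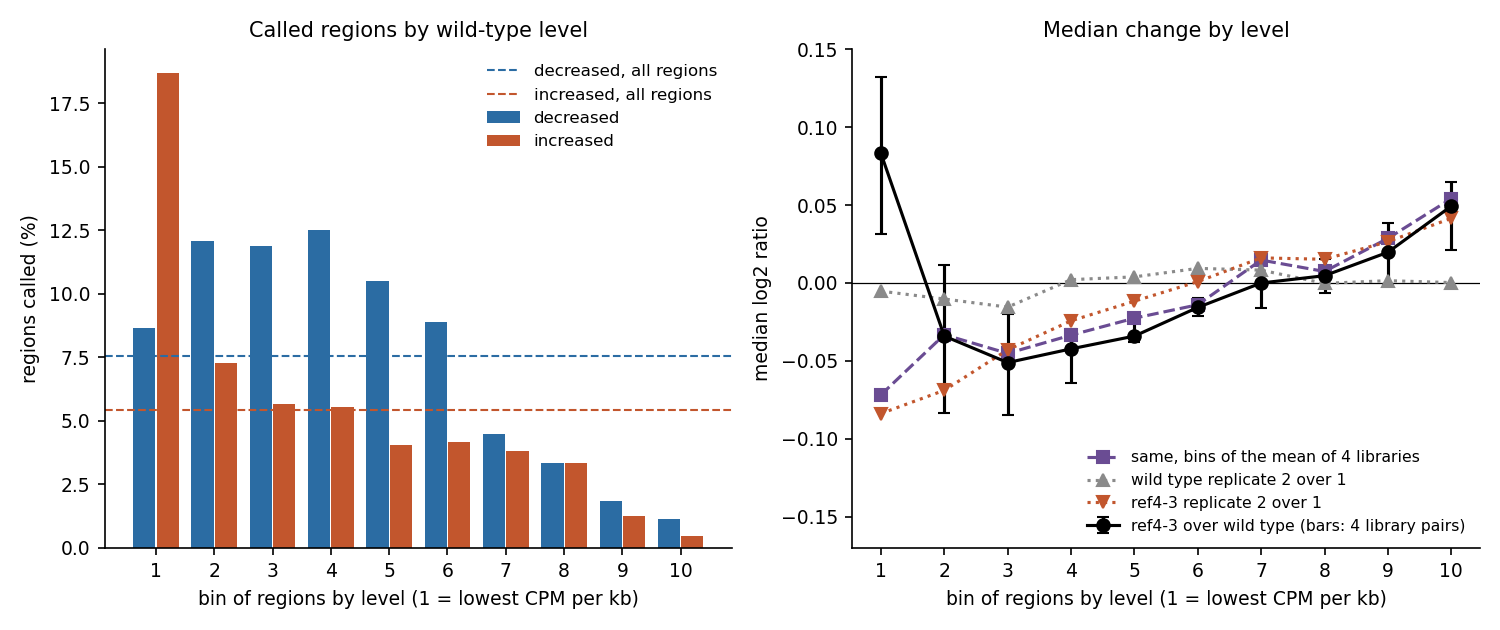
Left, percent of regions called decreased or increased in 10 bins of regions ordered by wild-type CPM per kb, with dashed lines at the shares over all regions (7.54% and 5.43%). Right, median log2 ratio in each bin for *ref4-3* over wild type (bars give the range over the 4 pairs of libraries), for the same ratio with bins of the mean of 4 libraries, and for replicate 2 over replicate 1 within each genotype. Calls are scarce in the highest bins, and bin 1 changes sign between the orderings, from 0.08 to −0.07.

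Isolated regions changed more often than regions in company. Where an island held 1 gene, 10.2% of the regions were decreased and 6.62% increased, and where it held 2 genes, 5.92% and 3.90%. In islands with 4 genes or more the order was turned, with 3.04% decreased and 5.81% increased. With 5 bins of equal size by island length, in the shortest, from 200 to 1200 bp, 11.5% of regions were decreased and 8.42% increased, and in the longest, from 6800 to 28800 bp, 2.37% and 5.37%. By the length of the region itself the shares varied less, from 9.23% decreased in the middle of 5 bins to 4.73% in the longest, which began at 1810 bp. Regions that reached the gene start were decreased in 5.72% and increased in 4.40% of cases, and those that did not in 11.5% and 7.64%. These features go together, since regions away from the start had 45.5 CPM per kb at the median and those at the start 94.8.

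Some islands were listed in one genotype only. Of 372 regions in islands found only in the merged wild-type list, 117 (31.5%) were decreased and 0 were increased, with a median log2 fold change of −0.27. Of 128 regions in islands found only in the merged *ref4-3* list, 71 (55.5%) were increased and 0 were decreased, with a median of 0.40. The islands were called on the same libraries that give the counts, so these directions are no separate evidence. The other 8163 regions had shares of 6.57% and 4.89%.

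By kind of gene, 561 of 7091 protein-coding genes were decreased (7.91%) and 373 increased (5.26%). The 972 genes for long non-coding and other RNA had 59 decreased and 64 increased, and the 198 pseudogenes 17 and 18. Of 25 miRNA genes, 1 was decreased and 2 were increased. Chromosome 3 had 8.64% of its regions decreased and 4.02% increased, and chromosome 1 had 6.16% and 6.46%. Within 1 Mb of MED5b, 7 of 92 regions were decreased and 7 were increased. Neither MED5b nor its paralog MED5a had a region in the table.

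The F-box genes, whose proteins pick targets for ubiquitination and whose family is among the largest of plants, carried the mark in 358 members at a median of 99.5 CPM per kb, above that of all regions. Of these, 37 (10.3%) were decreased against 7.7% of all genes, and 7 (1.96%) were increased against 5.52%. The decreased members came from all 5 chromosomes, 11, 2, 10, 8 and 6 in order. They included *AT3G28330* and *AT4G10820*, described above. The increased members included *AT1G66320*, with 12.4 and 11.5 CPM against 17.6 and 16.7 CPM, and *AT4G22030*, with 23.7 and 21.3 CPM against 33.4 and 28.9 CPM, and DESeq2 called neither of these. The median of the family, −0.02, became 0.00 when a trend over GC content was removed. With DESeq2 the counts of the family were 16 and 3, where over all genes they were 219 and 187. Without wild-type replicate 2 they were 26 and 3. F-box genes have close copies, and how fragments were shared among near-identical copies was not examined here.

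The TRAF and MATH genes, which encode protein-interaction domains found in ubiquitin ligase adaptors, had 7 of 43 decreased (16.3%, against 7.7% of all genes) and 0 increased. An example was *AT1G66650*, at 23.9 and 20.9 CPM against 17.4 and 16.4 CPM. DESeq2 called none of the 7, 0 were decreased without wild-type replicate 1 and 2 without replicate 2, and the changes were of small size, with *AT1G66650* at a log2 fold change of −0.41. Of 23 aspartyl protease genes 3 were decreased and 0 increased, among them *AT5G10770* and *AT5G37540*, the latter at 48.9 and 49.2 CPM against 35.0 and 33.1 CPM. The subtilases, another protease family, had 1 of 20 decreased and 0 increased.

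Among families of enzymes and transporters, the 2-oxoglutarate-dependent oxygenases had 6 of 40 members decreased (15%) and 1 increased, with a median log2 fold change of −0.07. *GA20OX1*, a gibberellin synthesis gene, had 23.6 and 22.9 CPM in wild type and 15.3 and 17.2 CPM in *ref4-3*, and *AT5G05600* went the other way, with 32.4 and 32.5 CPM against 51.2 and 61.9 CPM. DESeq2 kept *AT5G05600* but not *GA20OX1*, and 1 decreased oxygenase in all. The decreased count was 2 and 3 without wild-type replicate 2 and 1, and 3 without *ref4-3* replicate 2. The UDP-glycosyltransferases had 7 of 51 decreased and 2 increased. *UGT84A2*, which glucosylates sinapate, fell from 36.8 and 37.3 CPM to 21.5 and 20.3 CPM, and *UGT71B1* from 75.5 and 74.5 CPM to 47.7 and 39.9 CPM. *UGT85A1* and *UGT85A3* rose, at log2 fold changes of 0.65 and 0.56, and 6 members were increased without *ref4-3* replicate 2. Of 27 MATE efflux transporter genes 4 were decreased (14.8%, against 7.7% of all genes) and 1 increased (3.7%, against 5.52%). The decrease at *AT4G21910* was from 93.9 and 97.3 CPM to 68.2 and 57.0 CPM. The cytochrome P450 genes, with 129 members in the table, had 6 in each direction, which is 4.65% and below both background shares. These counts moved when single libraries were left out, as did those over all genes. *CYP707A2*, which breaks down abscisic acid, fell from 65.9 and 60.3 CPM to 43.8 and 39.4 CPM, and *CYP94B3*, which oxidises jasmonoyl-isoleucine, rose from 194 and 186 CPM to 267 and 262 CPM.

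Auxin-responsive SAUR genes, which act in cell expansion, had 6 of 29 decreased (20.7%, against 7.7% of all genes) and 2 increased (6.9%, against 5.52%). *AT3G12955* fell from 23.5 and 21.8 CPM to 14.1 and 13.1 CPM, and *AT4G34760* rose from 14.6 and 12.7 CPM to 23.1 and 19.2 CPM. Only the fall at *AT3G12955* was called by DESeq2, and 2 were decreased without wild-type replicate 1.

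Of 112 genes for defensin-like and other cysteine-rich peptides, 13 (11.6%) were increased and 3 (2.68%) decreased. The increased ones with the largest change, *AT2G20618* and *AT1G12665*, had low counts, with 8.39 and 9.64 CPM against 13.4 and 13.8 CPM at the former. DESeq2 called 2 of the increased members, and the count was 2 and 4 without wild-type replicate 1 and 2 and reached 19 with a trend over the mean count removed. The CLE and RALF peptide genes, which are secreted signals, had 4 of 41 decreased (9.76%) and 1 increased (2.44%), against 7.7% and 5.52% of all genes. With DESeq2 their counts were 0 and 1. The decreased defensin-like gene *AT3G59930* changed more than any increased one, from 17.5 and 18.5 CPM to 5.69 and 4.92 CPM. Genes of the self-incompatibility S1 family, a group of secreted proteins, had 4 of 31 increased (12.9%, against 5.52% of all genes) and 0 decreased. Of these 4 genes, 3 lie in 1 island. The increased count was 1 with DESeq2 and without wild-type replicate 1, and 7 without *ref4-3* replicate 1. The ECA1 and egg cell-type genes had 3 of 23 increased and 1 decreased, with *AT3G45243* at 13.8 and 13.8 CPM against 23.6 and 24.4 CPM, and 5 increased without *ref4-3* replicate 1.

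Most transcription factor families had calls in both directions. Their median log2 fold changes were small and above 0, from 0.0047 for C2H2 zinc finger genes to 0.0741 for bHLH genes. With a trend over the mean count removed, the bHLH median was 0.0378 and the NAC median −0.0204. The lists follow words in the annotation and miss some members. The highest log2 fold changes in the C2H2, AP2/ERF and B3 lists were 0.463, 0.633 and 0.395. *AT1G75710*, at 1.04, and *RAV1*, at 1.14, were thus not counted there. AP2/ERF genes had 7 of 58 increased (12.1%) and 2 decreased, with *AT5G21960* at 105 and 100 CPM against 150 and 150 CPM and *ERF15* among the decreased. With DESeq2, and without wild-type replicate 2, 4 were increased and 1 decreased. Of 18 bZIP genes 3 were increased (16.7%, against 5.52% of all genes), among them *BZIP61* and *BZIP34*. *PAN*, a bZIP gene which acts in floral organ number, was decreased, at 26.6 and 26.5 CPM against 15.9 and 17.4 CPM. Its region overlaps *AT1G68630*. Homeobox genes had 9 of 60 decreased (15%) and 4 increased, with a family median of 0.06. The decreased count was 4 with DESeq2, 3 without wild-type replicate 2 and 5 without *ref4-3* replicate 2, and the increased count 2 with DESeq2 and without wild-type replicate 2. The zinc finger-homeodomain gene *HB25* fell from 76.5 and 69.4 CPM to 48.6 and 45.3 CPM, and *HB23* was at 21.7 and 21.1 CPM against 30.0 and 31.3 CPM, a rise that DESeq2 did not call. *ATHB-15*, a class III homeodomain-leucine zipper gene of vascular and meristem development, had 23.7 and 22.7 CPM against 18.6 and 14.3 CPM, and its call was lost with DESeq2 and without any 1 of 3 libraries.

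MADS-box genes had 6 of 60 decreased (10%) and 3 increased (5%), against 7.7% and 5.52% of all genes. With DESeq2 the family had 2 in each direction. The largest values were those of genes of flowering time, *AGL24*, a promoter of flowering, with 154 and 148 CPM against 244 and 246 CPM, and *MAF5*, a repressor related to *FLC*, with 263 and 259 CPM against 165 and 170 CPM. NAC, MYB and WRKY genes were called at or below the background shares, with 3 and 2 of 59, 5 and 2 of 94, and 2 and 2 of 39 decreased and increased. bHLH genes had 4 of 66 decreased and 5 increased. Leucine-rich repeat receptor kinase genes had 6 of 48 in each direction, of which DESeq2 called 1 in each, and without wild-type replicate 2 there were 0 decreased and 1 increased.

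**Figure D3:**
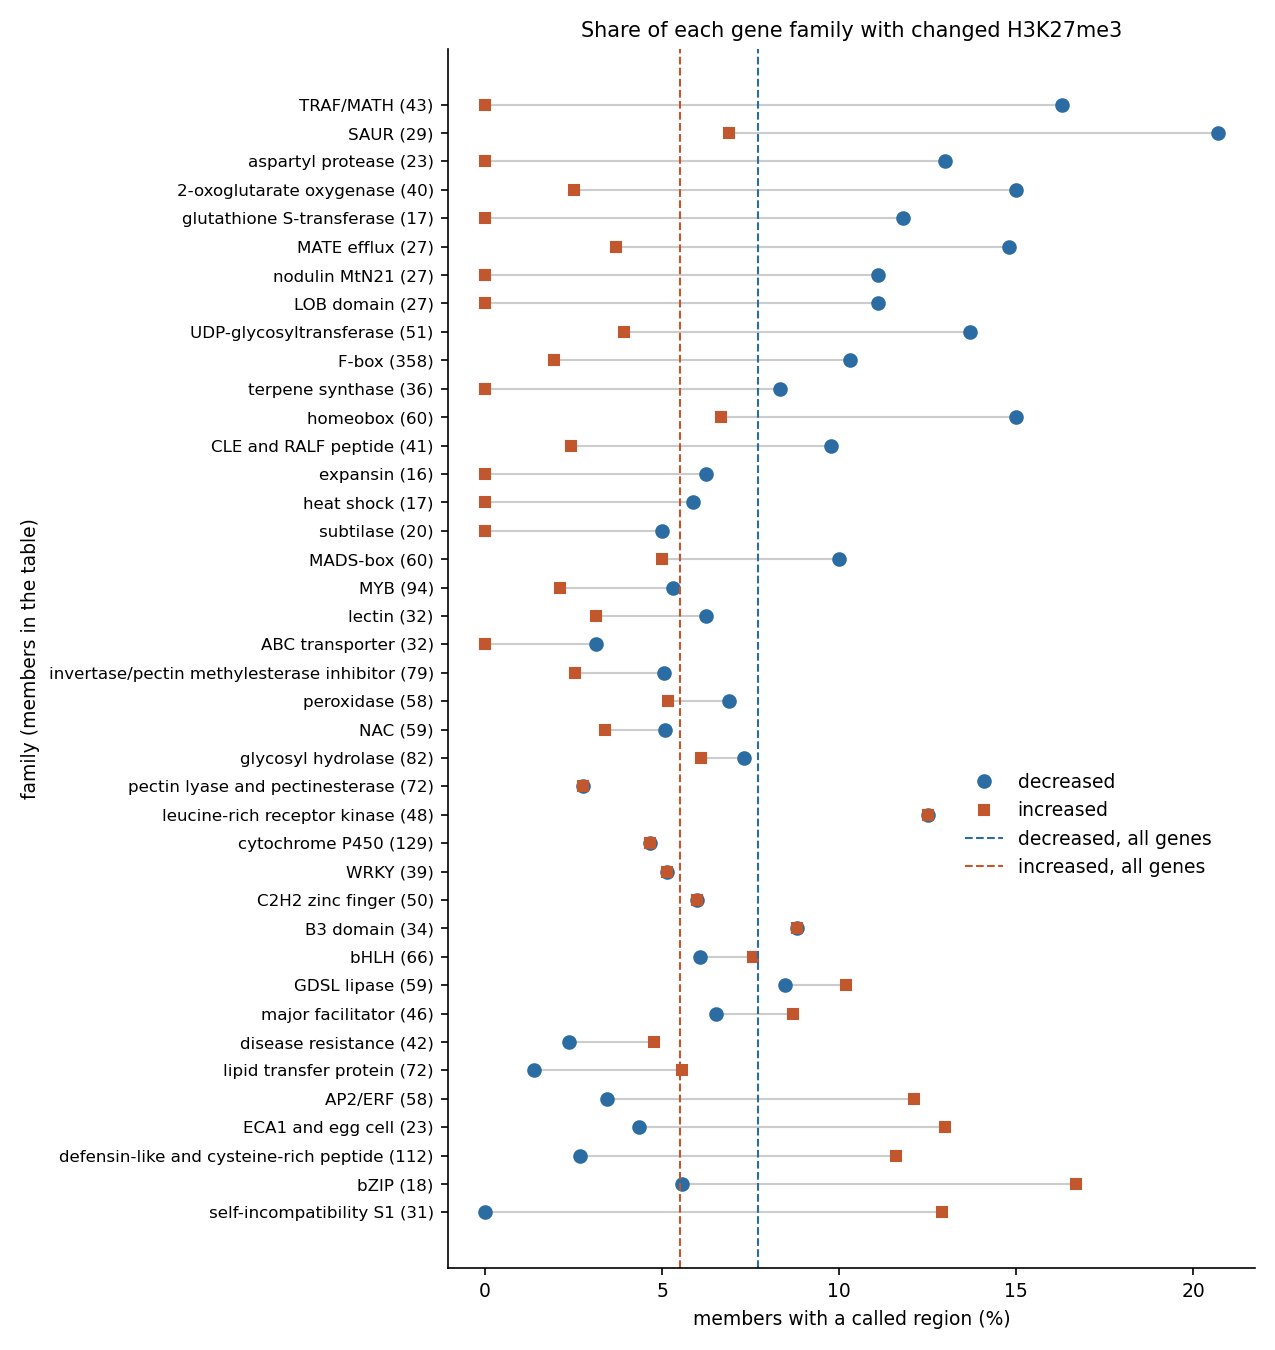
Percent of the members of each gene family that had a decreased (circle) or increased (square) region, with the number of members in the table in parentheses and dashed lines at the shares over all genes (7.7% and 5.52%). F-box genes (358 members) stand at 10.3% and 1.96%, and defensin-like genes (112 members) at 2.68% and 11.6%. Many families hold few called members, and no test was run on the families.

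Genes of known function were taken from 7 lists. None of the 15 floral organ identity genes was called. Their log2 fold changes lay between −0.01 and 0.17, and 6 were above wild type at an edgeR FDR below 0.05 but under 1.2-fold. *AG*, which specifies stamens and carpels, had 944 and 965 CPM in wild type and 985 and 1050 CPM in *ref4-3*, and *SEP3*, its cofactor, 533 and 525 CPM against 574 and 611 CPM, the largest change of the list at 0.17 (FDR 0.000204). *LFY*, which switches on floral identity, had 278 and 294 CPM against 282 and 289 CPM, where the genotypes overlapped. The seed maturation list, with storage protein genes and their regulators, had 0 of 14 called. *ABI3* had 891 and 906 CPM against 945 and 942 CPM, and the storage protein gene *SESA5* 150 and 142 CPM against 126 and 123 CPM. Of these 29 genes, only the seed gene *OLEO2*, at 18.6 and 18.9 CPM against 24.8 and 21.5 CPM, differed by more than 1.2-fold, and it did not pass the test (FDR 0.101).

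Among 8 meristem and boundary genes, *STM*, which maintains the shoot meristem, had 737 and 726 CPM against 755 and 789 CPM, and *WUS*, which specifies its stem cell niche, 442 and 444 CPM against 449 and 468 CPM. *CUC3*, a boundary NAC gene, was the only gene of this list to be called, at 78.2 and 82.7 CPM against 70.3 and 63.5 CPM and a log2 fold change of −0.28. That call was lost with DESeq2, with the trend over the mean count or GC content removed, and without wild-type replicate 2 or *ref4-3* replicate 2. *KNAT1*, a knotted-type homeobox gene, had 484 and 490 CPM against 408 and 446 CPM. Of the flowering repressors, *FLC* had 1130 and 1140 CPM against 1230 and 1260 CPM, a log2 fold change of 0.13, and *MAF4*, next to *MAF5*, had 229 and 212 CPM against 182 and 190 CPM, a change of −0.24 (edgeR FDR 1.5e-05). *MAF4* was below the fold threshold, and of the 3 genes only *MAF5* was called.

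The jasmonate genes were the list with the most calls for its size. Of 28 genes 10 carried the mark, at a median of 34.2 CPM per kb, and 6 of the 10 were increased and 0 decreased. *AOC3*, an allene oxide cyclase of jasmonate synthesis, rose from 23.5 and 22.7 CPM to 39.8 and 37.9 CPM (log2 fold change 0.75, SE 0.116, FDR 6.46e-09). The nearby cyclase gene *AOC1* had 36.9 and 44.2 CPM against 50.8 and 54.3 CPM, and *LOX4*, a lipoxygenase of the same pathway, 27.7 and 26.8 CPM against 33.9 and 36.4 CPM. Of the JAZ repressors, *JAZ1* had 32.1 and 30.1 CPM against 46.4 and 51.5 CPM and *JAZ8* 33.9 and 27.5 CPM against 37.6 and 47.8 CPM. *JAZ10* had 91.6 and 102 CPM against 116 and 130 CPM. *JAZ4* and the vegetative storage protein genes *VSP1* and *VSP2* were not called, with log2 fold changes from −0.09 to −0.06 and levels of 38.2 to 111 CPM per kb. *AOC2* was also not called, at 22.6 and 20.5 CPM against 31.5 and 23.4 CPM (log2 fold change 0.33, edgeR FDR 0.0599). DESeq2 called 3 of the 6, and the count ranged from 4 to 7 over edgeR settings. The list was put together with these data known. Its median level lies in bin 1 of the wild-type ordering, where 18.7% of regions were increased, a share that depended on the ordering. Of the called genes, *JAZ8* and *JAZ10*, at 41.5 and 68.3 CPM per kb, lay above that bin. The part of the level in these increases was not tested.

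The phenylpropanoid and flavonoid list, with 22 of 36 genes in the table, had calls in both directions. Genes of the flavonoid branch were among the decreased, with *TT7*, a flavonoid hydroxylase, at 131 and 123 CPM against 98.6 and 90.6 CPM, *PAP1*, a MYB activator of anthocyanin synthesis, at 75.9 and 77.7 CPM against 70.8 and 53.4 CPM, and 1 region of *4CL3*. Genes of the general pathway were among the increased, with *PAL1*, its first enzyme, at 47.1 and 42.7 CPM against 60.5 and 58.4 CPM, *4CL2* at 21.2 and 21.9 CPM against 31.4 and 33.1 CPM, and *4CL5* at 24.5 and 25.3 CPM against 31.0 and 34.0 CPM. The other 16 genes were not called, and the median of the list was −0.08. Of the 22 genes, 17 were below 0 and 5 above. Uncalled genes of both branches lay mostly below 0. *PAL3* and *PAL4*, of the general pathway, were at −0.00423 and −0.07. *MYB113*, of the flavonoid branch, was at −0.26 (edgeR FDR 0.0044), just under the fold threshold. Only the flavonoid gene *BAN*, at 0.18 (edgeR FDR 0.419), and *FAH1*, at 0.12 (edgeR FDR 0.263), were uncalled and above 0. The counts decreased and increased were 7 and 3 without *ref4-3* replicate 1 and 1 and 1 without wild-type replicate 2 and with DESeq2. *TT4*, chalcone synthase, stood at 81.7 and 79.0 CPM against 70.0 and 65.0 CPM, just under the fold threshold at a log2 fold change of −0.26, and *PAL4* at 406 and 412 CPM against 375 and 400 CPM. The decrease at *PAP1* was lost without the second *ref4-3* library and with DESeq2, and DESeq2 kept the calls at *TT7* and *4CL2* but not that at *PAL1*.

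**Figure D4:**
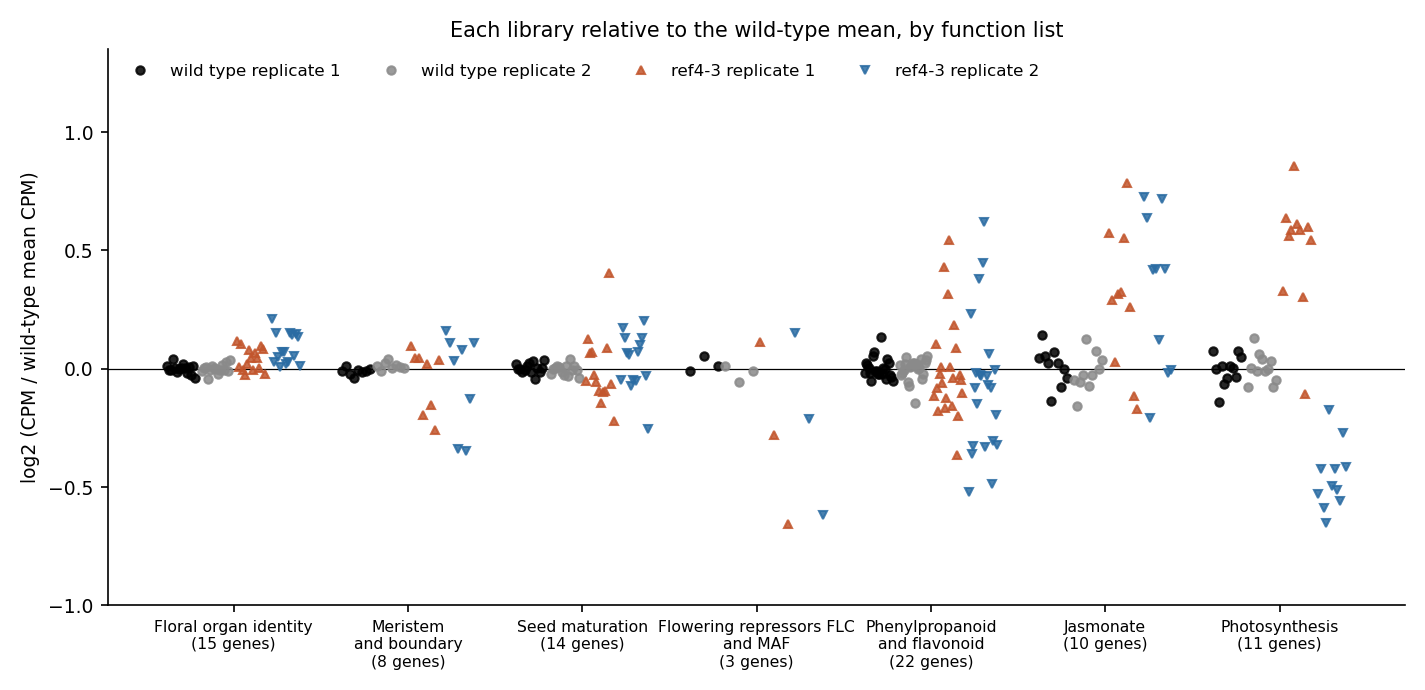
Each library's level at each gene of 7 function lists, as the log2 ratio to the wild-type mean, with 1 point per gene and library. Points of *ref4-3* lie near 0 for floral organ genes (15 genes), rise for most of the 10 jasmonate genes in both libraries, and part in opposite directions for the 11 photosynthesis genes.

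Neighbouring genes changed alike. Over 1954 pairs of adjacent regions in the same island that did not overlap, the log2 fold changes had a Pearson correlation of 0.435, and over 1494 pairs in different islands less than 5 kb apart, 0.329. At 5 to 20 kb it was 0.07 and at 20 kb or more 0.08. The same correlation of the wild-type replicate ratios was 0.07 within islands and −0.00271 between islands less than 5 kb apart, and of the *ref4-3* replicate ratios 0.13 and 0.11. The pairs share their libraries, so these are descriptions. Of the neighbours of a decreased region in the same island, 46 of 157 (29.3%) were also decreased and 1.27% increased, against 7.54% and 5.43% of all regions. For islands less than 5 kb apart the shares were 26.4% and 0.43%. Beside an increased region in the same island, 28 of 154 (18.2%) were also increased and 1.3% decreased. Where neighbours in an island were at least 1 kb apart, 14 of 53 (26.4%) beside a decreased region were decreased, but only 6 of 73 (8.22%) beside an increased region were increased. Of 339 genes with 2 regions, the changes in both had a correlation of 0.61, and of 101 genes with several regions and a called one, 27 had at least 2 called in the same direction and 1 had calls in opposite directions.

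**Figure D5:**
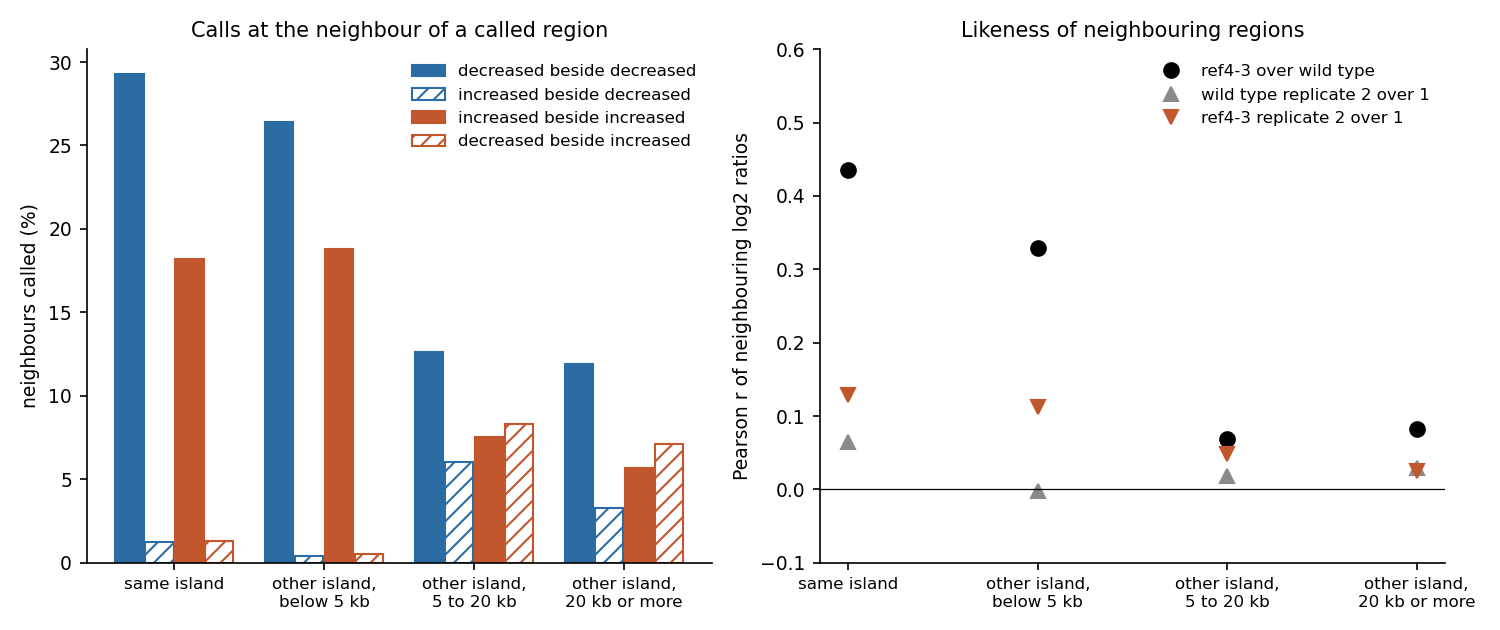
Left, percent of neighbours of a called region that were themselves called, by distance. Right, Pearson correlation between the log2 ratios of adjacent regions for *ref4-3* over wild type and for replicate 2 over replicate 1 within each genotype. Calls in the same direction reach 29.3% within an island and fall towards the shares over all regions beyond 5 kb.

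Adjacent calls formed 15 runs of at least 3 genes with no more than 5 kb between neighbours, 9 decreased and 6 increased. DESeq2 called every member only in the runs at *UGT71B1* and at *CRH1*, described below. Of the 15 runs the longest, at chr1:24716305-24728600, held 5 increased genes of an F-box cluster. Its members with most mark, *AT1G66300* and *AT1G66310*, had 193 and 198 CPM against 239 and 231 CPM and 156 and 144 CPM against 200 and 202 CPM. The others were *AT1G66320* and the non-coding genes *AT1G09805* and *AT1G08833*, none of which DESeq2 called. This cluster went against its family, in which decreases were more common, and accounted for 3 of the 7 increased F-box genes. An S1 run at chr1:18997026-19002215 held *AT1G51230*, *AT1G51240* and *AT1G51250*, all in 1 island and all increased by 0.27 to 0.46 on the log2 scale. A run at chr3:5234601-5245200 held the NAC genes *NAC3* and *NAC2* with a non-coding gene between them, and these had 131 and 123 CPM against 170 and 174 CPM and 110 and 107 CPM against 141 and 136 CPM. *JAZ1* lay in a run with *AT1G08925* and the hydrolase gene *AT1G19190*. The last of these had 28.4 and 38.9 CPM against 42.4 and 40.9 CPM, where the wild-type libraries differed more than the nearest libraries of the genotypes. At chr1:24938500-24944514, the X8-domain genes *AT1G66852* and *AT1G66855* and the amidotransferase gene *AT1G66860* increased together.

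Among the decreased runs, one at chr3:7664601-7668600 held the glycosyltransferase genes *UGT71B1* and *HYR1*, the latter at 67.4 and 62.6 CPM against 46.0 and 33.4 CPM, with the non-coding *AT3G21755*, whose region overlaps that of *HYR1*. *AT5G38940*, *AT5G38950* and *AT5G38960*, cupin genes, changed by −0.55 to −0.46 on the log2 scale at chr5:15589401-15593963, and DESeq2 called none of them. *RHS13*, *SUS3*, which encodes a sucrose synthase, and *GH9B13*, a glycosyl hydrolase gene, fell by 0.39 to 0.28 at chr4:992201-1003200. *PAN* lay in a run of 4 with *PCR11*, *AT1G68620* and *AT1G68630*. The last of these fell from 78.6 and 81.4 CPM to 53.4 and 53.9 CPM, and its region contains that of *PAN*, so both count the same fragments there. The methyltransferase gene *AT5G53810*, the late embryogenesis abundant gene *AT5G53820* and the VQ-motif gene *AT5G53830* had log2 fold changes of −0.87, −0.44 and −0.38. *CRH1*, a gene of the MORC-type ATPases, had 117 and 111 CPM against 92.5 and 84.3 CPM beside *AT4G36270* and *AT4G09285*, which were at −0.70 and −0.77. The runs at *HB25* and its non-coding neighbours and at 2 loci of overlapping genes on chromosomes 2 and 5 also rest on fragments counted for more than 1 gene. A further overlapping set on chromosome 2, *AT2G09620* to *AT2G09635*, was increased. Without overlapping regions, 4 decreased and 5 increased runs were found.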

How the data were processed

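The ChIP-seq libraries came from biological replicates of whole rosettes. Per the labels and the study's methods, the authors trimmed reads with fastp 0.23.2, mapped them with Bowtie2 to TAIR10 (version 2.2.1 in the submitters' processing notes), handled alignments with SAMtools 1.17 and called islands per library and per genotype. The processing notes name SICER and the methods epic2. Each deposited count is the number of fragments, with duplicates removed, in the part of a gene inside an island of either genotype, without normalization or input subtraction, and fragments in overlapping genes were counted for each. The deposited island lists carry a score by the authors, which was not printed; only the islands' positions were used.

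The counts were tested with edgeR 4.0.16 (R 4.3.3; exact test, TMM factors, FDR below 0.05, fold above 1.2, no filter). The scaling and dispersion settings were not given in the sources used here, and edgeR's defaults were taken. Python 3.11.15 with pandas 2.3.3 was used for summaries. Gene types, names and sequences came from RefSeq for TAIR10.1, in which all 8286 gene identifiers matched and all 8663 regions lay inside their gene. Families were matched by the annotated product, and lists, members and tests were chosen with earlier results of these data known. Genes were named by a rule. Called genes with a mean count of at least 100, no overlap and libraries of the genotypes apart were ordered by change. The 12 protein-coding and 3 other genes with the largest change in each direction were taken. The 2 called members with the largest change per list and direction and every gene in a run were added. Further members of the function lists were given whether called or not. These are a selection, and the text does not print the values of all members. The plot of library levels by function list shows each member in the table. Where fold changes used another scaling or test (DESeq2 1.42.0, offsets for trends over the mean count or GC content, other thresholds, single libraries left out), their effect is given at the end. Replicates were numbered in the labels without a stated pairing. The test was also run on counts simulated with its own estimated dispersions, which cannot show whether those are too small. Precision is limited by 2 libraries per genotype. Input and H2A.Z libraries were not used here.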

Additional observations from a re-analysis of the deposited data

How the results depend on the processing

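The fold threshold and the test moved the counts of 638 decreased and 457 increased genes most. DESeq2 called 219 and 187, of which 219 and 185 were among those of the exact test. A threshold of 1.5-fold gave 109 and 81, and none gave 1005 and 1011. Leaving out 1 library gave 354 to 886 decreased and 273 to 545 increased genes: 354 and 283 without wild type replicate 1, 360 and 273 without replicate 2, 886 and 533 without *ref4-3* replicate 1 and 511 and 545 without replicate 2. The cause was not tested. Removing a trend over the mean count gave 575 and 582, so that 49.7% of called genes were decreased against 58.3%. Library totals, DESeq2 size factors, a trend over GC content, a quasi-likelihood test, a mean count of at least 100 and the exclusion of overlapping regions kept both counts within 1.5-fold. The replicate block gave 672 and 488; the replicate differences of the genotypes had a correlation of 0.0713 across regions, and the labels give no pairing, so the numbers do not pair the samples.

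Of 194 called regions that are named, none turned its direction, and 106 kept their call with DESeq2, 181 with each trend offset, and 127 to 182 without 1 library. Genes named without a call were not among these, and the photosynthesis median was −0.495 without *ref4-3* replicate 1 and 0.587 without replicate 2. With regions ordered by the mean of 4 libraries the median of bin 1 was −0.0718, of bin 5 −0.0226 and of bin 7 0.0147. With the offsets over the mean count, bins 4, 5, 6 and 10 were at −0.0205, −0.0181, −0.00641 and 0.0211. By island length in place of region length, bins 1, 2, 4 and 5 were at −0.0391, −0.0407, 0.0137 and 0.043. Decreased runs numbered 17 with gaps of at most 20 kb and 4 without overlapping regions, against 9.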

Other observations

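Because *HAI1* and *HAI2* stood among the largest decreases, all 9 clade A type 2C phosphatase genes were looked up, a set chosen after the values were seen. Only 4 had a region in the table. *AHG1*, which acts in abscisic acid responses of seeds, had 133 and 129 CPM in wild type and 105 and 101 CPM in *ref4-3*, a log2 fold change of −0.35 (edgeR FDR 2.95e-07). *HAI3* had 95.4 and 97.0 CPM against 101 and 86.8 CPM, a change of −0.05 (FDR 0.715), with the *ref4-3* libraries on either side of wild type. *HAI1*, *HAI2* and *AHG1* were thus decreased and *HAI3* was not called.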
